A study of Mus musculus with 12 samples.

Results

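The comparison described here is the interaction of treatment and day: how far the difference between mouse embryonic stem cells (mESCs) exposed to 4-hydroxytamoxifen (4-OHT) and cells given its ethanol vehicle changed from Day 2 to Day 4. It rests on all 12 libraries of the series, 3 in each of 4 groups: EtOH and OHT at Day 2, and EtOH and OHT at Day 4. All cells were C57BL/6 with the genotype Prdm10F/F; Rosa26-CreERT2, grown on gelatin in serum and LIF, so the EtOH cells carried the floxed alleles and the Cre as well. Exposure to 50 nM 4-OHT lasted 24 h and lets the Cre enter the nucleus and cut exon 5 out of *Prdm10*. No library came from exposed cells without floxed alleles, so an effect of 4-OHT or of active Cre cannot be told apart from that of losing *Prdm10*. The 2 days were also separate harvests. Nothing in the labels says whether the 3 libraries of a group came from separate cultures, so the p-values measure only the spread between these libraries.

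PRDM10 is a zinc finger transcription factor of the PRDM family that binds mostly near gene starts. A treatment effect can change between days in several ways. A loss can deepen while existing mRNA decays, and later responses can add to it, replace it or turn it round. Among the processes followed here, ribosomes and translation factors make protein, the ATF4 programme supplies amino acids under stress, and mitochondria and glycolysis supply energy.

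The gene-level count of *Prdm10* itself was 767, 821 and 815 in the EtOH libraries of Day 2 and 2080, 2225 and 2213 in those labelled OHT. At Day 4 it was 821, 875 and 911 in EtOH and 1982, 2090 and 1965 in OHT. The count, normalised to library size as are all counts here, thus went against a plain reading of the label on both days. Since it covers the whole gene and the deletion takes out 1 exon, it checks nothing about the deletion, and every direction below is that of libraries labelled OHT over libraries labelled EtOH. The interaction of *Prdm10* was -0.23 ± 0.081 (log2, SE, adjusted p = 0.022), and the call was lost in some fits that left out 1 library and when the length trend was removed (adjusted p = 0.11).

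Library totals ranged from 35017667 to 41409992 expected counts. The 6 pluripotent markers, among them *Pou5f1*, *Sox2* and *Nanog*, summed to between 70677 and 84123 normalised counts in every library and were highest at Day 4 in OHT (83147 to 84123). The 6 fibroblast markers summed to 197 to 226 at Day 2 in EtOH, 204 to 237 at Day 2 in OHT, 176 to 205 at Day 4 in EtOH and 135 to 156 at Day 4 in OHT. None of these 6, nor of the 10 markers chosen for endoderm, trophectoderm, mesoderm and neural cells, reached the mean count of 100 needed for testing. The 4 sets other than fibroblast summed to between 33.6 and 160, and the 2 neural markers were highest at Day 4 in OHT (152 to 160, against 110 to 117 in EtOH). The part of such cells in the results was not tested.

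Of 11612 genes tested, 3772 (32.5%) had a treatment effect that differed between the days at an adjusted p below 0.05. The effect was more positive at Day 4 for 2191 genes (18.9%) and more negative for 1581 (13.6%). Positive calls were thus 58.1% of the total, but 44.3% when libraries were scaled to their total counts (1675 more positive, 2107 more negative). Most differences were small. The median size among called genes was 0.33 log2, 338 genes were more positive and 524 more negative by over 0.5 log2, and by over 1 log2 the numbers were 23 and 105. For 2612 genes (69.2% of those called) the call held with the same sign in each of the 12 fits that left out 1 library.

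Genes called for the interaction were classed by their effects on the 2 days. At Day 2 the effect was called for 3139 genes (27.0%), 1316 higher (11.3%) and 1823 lower (15.7%). At Day 4 it was called for 5529 (47.6%), 2893 higher (24.9%) and 2636 lower (22.7%). The largest class was new at Day 4, with 1361 genes higher and 720 lower that had no called effect at Day 2. The effect kept its sign and deepened for 211 lower and 181 higher genes. It changed sign for 497 genes, 240 from lower to higher and 257 from higher to lower. It faded for 278 lower and 314 higher genes, which were called at Day 2 alone. It shrank while still called on both days for 8 lower and 8 higher genes. For 194 genes neither day was called alone. Leaving out Day 2 EtOH replicate 1 brought the genes called at Day 2 down to 1964 and the reversals from lower to higher down to 110.

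**Figure D1:**
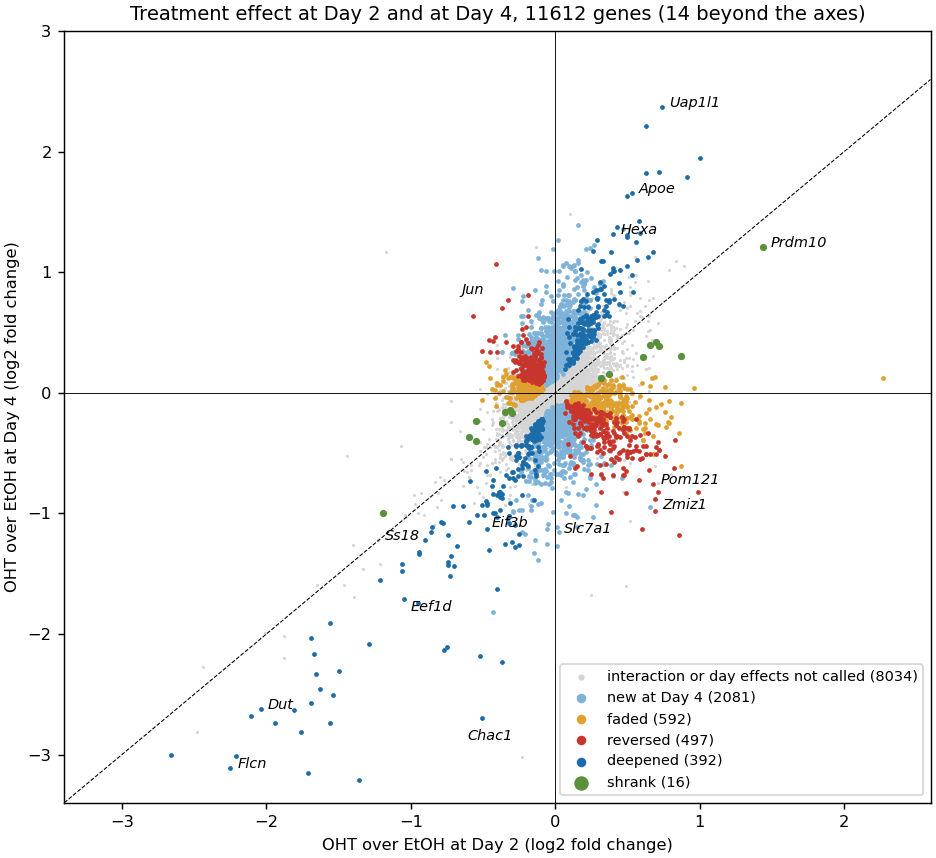
The treatment effect at Day 2 (horizontal, log2 of OHT over EtOH) against that at Day 4 (vertical) for the 11612 genes tested, each a point coloured by its class; 14 genes lie beyond the axes. The dashed line marks equal effects, and deepened genes lie farther from 0 than it on the vertical axis while the 497 reversed genes fill the upper left and lower right parts.

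The interaction is also the change between days in OHT less that in EtOH, and both labels moved. Between the days 6720 genes (57.9%) changed in OHT, 3772 upwards (32.5%) and 2948 downwards (25.4%). In EtOH 5358 changed (46.1%), 2705 upwards (23.3%) and 2653 downwards (22.8%). Among genes with a more positive effect at Day 4, 893 (40.8%) rose in OHT alone, 476 (21.7%) fell in EtOH alone, and 266 (12.1%) did both. Among those with a more negative effect, 763 (48.3%) fell in OHT alone, 321 (20.3%) rose in EtOH alone and 185 (11.7%) did both. Of the 257 genes reversed from higher to lower, the OHT change was the larger in 204. Of the 720 newly lower genes, the OHT change was the larger in 449 and the EtOH change in 271. A call therefore need not rest on a change in the exposed cells.

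Losses that deepened were often those of genes with a PRDM10 peak. Of the 633 genes that the study's ChIP-seq placed near a peak, 427 were tested, and 78 of the 211 deepened lower genes (37.0%) were among them, against 3.68% of all genes tested. For these 78 the median effect went from -0.92 to -1.46 log2, that is from 53% to 36.3% of the EtOH level, and 69 fell between the days in OHT. The other 133 deepened lower genes had smaller effects, with medians of -0.17 and -0.43, and 76 of them rose in EtOH. Among bound genes lower on both days, 78 of 176 (44.3%) deepened and 5 shrank, against 133 of 690 (19.3%) and 3 for unbound genes. These classes count called interactions only, and the bound losses were larger. Called or not, the effect was larger at Day 4 for 130 of the 176 bound and 477 of the 690 unbound genes. The difference between these shares was not tested. Over all 427 bound genes the median interaction was -0.056, with 53 more positive and 124 more negative, beside a median of 0.035 over all genes tested.

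The sequence carried by the wild-type probe of the study's binding assay shows the letters searched for in promoters. Capitals mark the 8 of 28 bases in which the 2 probes differ.
WT: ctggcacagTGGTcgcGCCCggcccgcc
MUT: ctggcacagCAACcgcATTTggcccgcc
The wild-type probe holds 1 match of TGGT, any 5 bases, CC, searched on both strands, and the mutant holds 0. Promoters were taken from RefSeq (GRCm38.p6) as 250 bases before to 50 after a gene start. The pattern was present in 4537 of 32851 promoters (13.8%), and in at least 1 promoter of 15.6% of all genes. Of the tested genes whose symbol was in the table, 35 of 57 bound and deepened lower genes held it (61.4%), as did 34 of 82 bound genes of other called classes (41.5%) and 79 of 202 bound genes with no called interaction (39.1%). Unbound deepened lower genes held it in 13 of 104 cases (12.5%).

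For 4 bound genes whose loss deepened, the stretch before the gene start is shown in the sense of the gene, with the 6 fixed letters in capitals, read as GG, 5 bases, ACCA where the match is on the other strand.
Eif3b (chr5:140419228-140419288, plus strand): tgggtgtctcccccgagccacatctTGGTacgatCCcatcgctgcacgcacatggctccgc
Ube2a (chrX:36874230-36874290, plus strand): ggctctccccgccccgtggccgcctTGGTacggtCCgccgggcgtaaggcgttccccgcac
Flcn (chr11:59810040-59810080, minus strand): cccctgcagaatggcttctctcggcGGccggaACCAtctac
Selenow (chr7:15922581-15922621, minus strand): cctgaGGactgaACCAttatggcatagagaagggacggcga
The match began 52 bases before the start of *Eif3b*, 40 before that of *Ube2a*, 16 before that of *Flcn* and 245 before that of *Selenow*. The promoter of *Ube2a* held 2 matches, of which the nearest before the start is marked. A match describes these letters only, and *Galnt10*, *Mpst*, *Polr1a*, *Dut* and *Cenpn*, whose losses deepened as well, held none in the promoters given for them.

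*Selenow*, which encodes a small selenoprotein, had the most negative interaction of the deepened lower genes. Its normalised count was 516, 604 and 662 in EtOH and 228, 254 and 246 in OHT at Day 2, then 952, 862 and 795 in EtOH and 29.6, 24.7 and 24.2 in OHT at Day 4. The groups did not overlap on either day, and the effect went from -1.29 to -5.06 log2, an interaction of -3.77 ± 0.22 (SE, adjusted p = 3e-63). *Nmral1*, a sensor of NADPH, was at 771, 816 and 795 against 37.9, 33.8 and 42.5 at Day 2 and at 1000, 900 and 991 against 2.96, 2.97 and 7.44 at Day 4. *Galnt10*, which starts mucin-type glycosylation, stood at 661 to 706 against 74.8 to 99.1 and then at 795 to 821 against 14.8 to 17.8. *Mpst*, a sulfurtransferase, stood at 511 to 596 against 67.5 to 73.8 and then at 472 to 546 against 9.3 to 11.9. In these 3 genes most of the loss was already there at Day 2 and the interaction was between -2.64 and -3.35.

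Bound genes with a part in translation deepened by less. *Eef1d*, a subunit of the elongation factor that recharges eEF1A, was at 13707, 13894 and 13150 in EtOH and 6390, 6521 and 6788 in OHT at Day 2, then at 13946, 13516 and 13484 against 4140, 4266 and 4122 at Day 4. EtOH stayed in place, so the interaction of -0.66 ± 0.048 (adjusted p = 2.7e-40) came with a fall in OHT. *Eif3b*, a core subunit of the eIF3 initiation complex, was at 12798, 12694 and 13548 against 8592, 8921 and 10269, and then at 15874, 14728 and 15893 against 7831, 7511 and 7717. Here EtOH rose by 0.25 log2 while OHT fell by 0.27, and the interaction was -0.52 ± 0.077 (adjusted p = 6.1e-10). *Rpl19*, a protein of the large ribosomal subunit, moved from -0.59 to -0.73 (interaction -0.14 ± 0.04, adjusted p = 0.0035), and *Polr1a*, the catalytic subunit of RNA polymerase I, from -0.68 to -1.27. *Ube2a*, a ubiquitin-conjugating enzyme, moved from -0.78 to -1.08 (adjusted p = 0.0028). *Dut*, which keeps dUTP out of DNA, moved from -2.04 to -2.62.

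*Ss18*, a subunit of BAF chromatin remodelling complexes, was lost to the same extent on both days. Its counts were 4535 to 4826 in EtOH against 1906 to 2044 in OHT at Day 2, and 4762 to 5016 against 2045 to 2108 at Day 4. The interaction was 0.006 ± 0.059, so that the 2 effects of -1.23 and -1.22 were within their errors of each other.

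Genes that ATF4 switches on when amino acids run short showed the largest shift of any list of nuclear genes. Of 28 tested, 18 became more negative at Day 4 and 2 more positive, and the median effect went from -0.26 to -0.65 (median interaction -0.46). Of these, 15 deepened. The median level of the list, relative to Day 2 EtOH, lay between -0.29 and -0.24 log2 in OHT at Day 2, between 0.21 and 0.32 in EtOH at Day 4, and between -0.52 and -0.44 in OHT at Day 4. The list thus rose in the vehicle cells and fell in the exposed cells.

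*Chac1*, which breaks down glutathione, was at 262, 191 and 237 in EtOH and 187, 129 and 171 in OHT at Day 2, then at 397, 391 and 390 against 63.2, 60.3 and 57.7 at Day 4. It rose in EtOH and dropped to below every Day 2 value in OHT (interaction -2.2 ± 0.22, adjusted p = 1.9e-20). *Nupr1*, a stress-induced chromatin protein, went from -0.37 to -2.23 and *Vldlr*, a lipoprotein receptor, from -0.4 to -1.63. *Atf4* itself stood at 7087 to 7263 in EtOH and 6039 to 6770 in OHT at Day 2, and at 10277 to 10461 against 6651 to 6885 at Day 4. Its interaction of -0.42 ± 0.056 (adjusted p = 4.8e-12) came with a rise of 0.53 log2 in EtOH beside one of 0.11 in OHT.

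Amino acid supply moved alongside. Of 17 tested amino acid transporters 8 became more negative and 0 more positive, with medians of -0.064 at Day 2 and -0.23 at Day 4. *Slc7a1*, the main carrier of cationic amino acids, was at 1435, 1393 and 1623 in EtOH and 1424, 1434 and 1626 in OHT at Day 2, where the groups overlapped. At Day 4 it was at 2896, 2955 and 2972 against 1298, 1298 and 1491. EtOH had risen by 0.99 log2 with no called change in OHT, giving an interaction of -1.12 ± 0.098 (adjusted p = 1.7e-27). *Slc1a4*, a carrier of neutral amino acids, went from -0.25 to -1.26. Of 22 aminoacyl-tRNA synthetases, which charge tRNAs, 11 became more negative and 3 more positive, led by *Iars*, *Cars* and *Nars* with interactions of -0.58, -0.41 and -0.41. Of 20 enzymes of serine, glycine and folate metabolism 7 became more negative and 3 more positive. *Mthfd2*, a folate enzyme of mitochondria, was at 3779 to 3888 against 2913 to 3126 at Day 2 and at 5583 to 5740 against 2678 to 2862 at Day 4. *Psat1*, which makes serine, went from -0.38 to -0.97. *Herpud1*, a gene of endoplasmic reticulum stress, went from -0.28 to -1.28. Its list of chaperones and unfolded protein response genes had 25 tested members, of which 4 became more negative and 2 more positive. Over all genes tested these shares were 13.6% and 18.9%.

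The mRNAs encoded in the mitochondrial genome and the nuclear subunits of the same respiratory chain moved in opposite directions. Of 13 mitochondrial mRNAs, 9 became more negative and 1 more positive, and the median effect went from -0.037 to -0.59. Of these 13, 2 were called higher and 3 lower at Day 2, and 0 and 9 at Day 4. The Day 2 median was 0.0016 with total count scaling and 0.1 without the length trend, so its sign depended on the setting. Their share of all counts was 1.21 to 1.3% in EtOH and 1 to 1.06% in OHT at Day 2, and 1.3 to 1.36% against 0.771 to 0.827% at Day 4. *mt-Nd4*, a subunit of complex I, was at 5838, 6673 and 6931 in EtOH and 8096, 8142 and 9227 in OHT at Day 2. At Day 4 it was at 6385, 8207 and 8230 against 5196, 5149 and 5230, a reversal with an interaction of -0.94 ± 0.15 (adjusted p = 1.5e-08). *mt-Atp6* and *mt-Nd4l*, with interactions of -1.28 and -1.25 and SEs of 0.49 each, overlap neighbouring genes and lost their calls in some fits without 1 library. In contrast, 47 of 76 nuclear subunits became more positive and 2 more negative, and their median effect went from -0.083 to 0.13. Without the length trend 34 were more positive and 5 more negative, and the Day 2 median was -0.0075. *Cox4i1*, of complex IV, was at 17301 to 18221 in EtOH against 16641 to 17080 in OHT and then at 16277 to 16961 against 20492 to 20991. Of 30 nuclear genes for mitochondrial RNA synthesis, 5 became more positive and 6 more negative, beside 18.9% and 13.6% of all genes tested. *Polrmt*, the mitochondrial RNA polymerase, had an interaction of -0.25 ± 0.09 (adjusted p = 0.03, lost in some alternatives) and *Tfam*, which packs mitochondrial DNA, one of -0.021 ± 0.068.

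**Figure D2:**
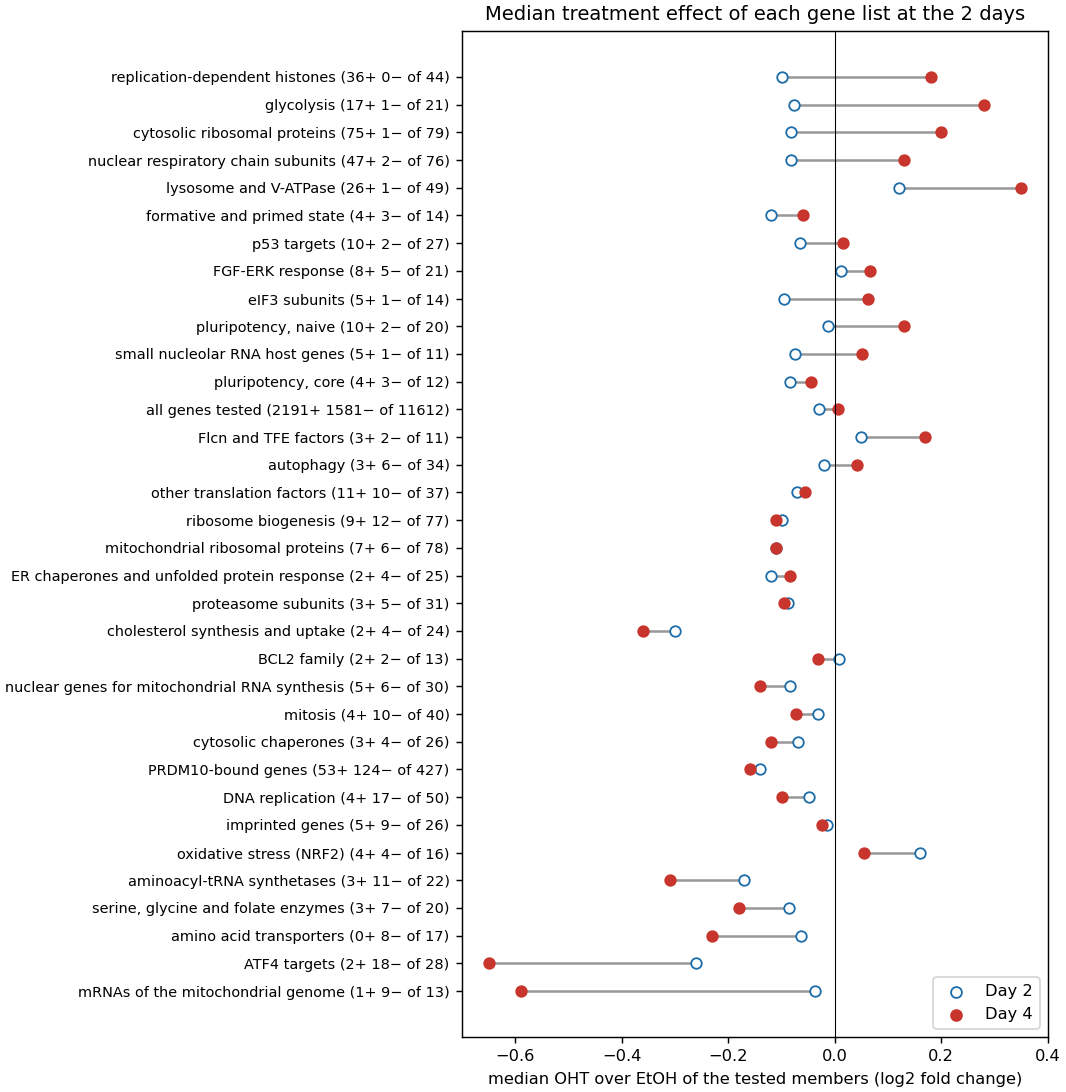
Median treatment effect (log2 of OHT over EtOH) of the tested members of each list with at least 10 members, at Day 2 (open) and Day 4 (filled), ordered by the median interaction; in brackets, members called more positive (+) and more negative (−) at Day 4. ATF4 targets and mitochondrial mRNAs move farthest to the left, from -0.26 to -0.65 and from -0.037 to -0.59, and histones, glycolysis and ribosomal proteins farthest to the right.

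Of the lists followed, that of the lysosome held the most gains that deepened. Of 49 tested genes of lysosomal enzymes, membrane proteins and the V-ATPase, 26 became more positive and 1 more negative, with medians of 0.12 at Day 2 and 0.35 at Day 4. The deepened class held 13 of them and the class new at Day 4 another 13. The list rose to 0.23 to 0.25 log2 over Day 2 EtOH in OHT at Day 4 and lay at -0.13 to -0.083 in EtOH. *Hexa*, a subunit of the hydrolase that breaks down gangliosides, was at 1007, 894 and 855 against 1202, 1221 and 1224 at Day 2 and at 695, 701 and 684 against 1791, 1750 and 1640 at Day 4 (interaction 0.91 ± 0.091, adjusted p = 3.3e-21). *Flcn*, a PRDM10-bound gene whose product folliculin restrains TFE transcription factors, drivers of lysosomal genes, was at 1638 to 1762 against 335 to 395 at Day 2 and at 1739 to 1820 against 198 to 214 at Day 4. Its effect deepened from -2.25 to -3.11. *Rragd*, a Rag GTPase of the same pathway, went from 0.27 to 0.65 and *Fnip1*, a partner of folliculin, from 0.17 to 0.61. Of 34 autophagy genes 3 became more positive and 6 more negative, beside 18.9% and 13.6% of all genes tested.

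Outside the lists, the deepened gains with the largest interactions were *Uap1l1*, *Patl2*, *Fabp3* and *Apoe*. *Uap1l1*, a relative of an enzyme that makes UDP-GlcNAc, was at 420 to 440 against 669 to 746 and then at 219 to 257 against 1194 to 1316 (interaction 1.63 ± 0.12). *Apoe*, a lipoprotein component, was at 9134, 8930 and 8530 in EtOH and 12577, 12709 and 13009 in OHT at Day 2, then at 6212, 5956 and 6152 against 19271, 19701 and 19088. *Fabp3*, a fatty acid binding protein, went from 4318 to 4618 against 6458 to 7118 at Day 2 to 2707 to 2893 against 9626 to 10086 at Day 4. In all 4 genes EtOH fell between the days (by 0.54 to 0.93 log2) while OHT rose (by 0.51 to 0.81).

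Glycolysis changed most in the vehicle. Of 21 genes of glucose uptake and breakdown, 20 fell between the days in EtOH and 20 in OHT, with medians of -1.01 and -0.62. Because OHT fell less, 17 became more positive and 1 more negative, and the median effect went from -0.077 to 0.28. *Slc2a3*, a glucose transporter, was at 76506, 76999 and 76025 in EtOH and 76175, 79823 and 82265 in OHT at Day 2, then at 38884, 38541 and 39017 against 66573, 65430 and 66777. *Pfkl*, the liver form of phosphofructokinase, was at 12297 to 13377 against 11452 to 12557 and then at 4831 to 5257 against 7653 to 7701. *Pfkp*, the platelet form of the same enzyme, was the exception, with an effect of -0.15 at Day 2 and -0.89 at Day 4 (interaction -0.75 ± 0.071, adjusted p = 4.9e-23).

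**Figure D3:**
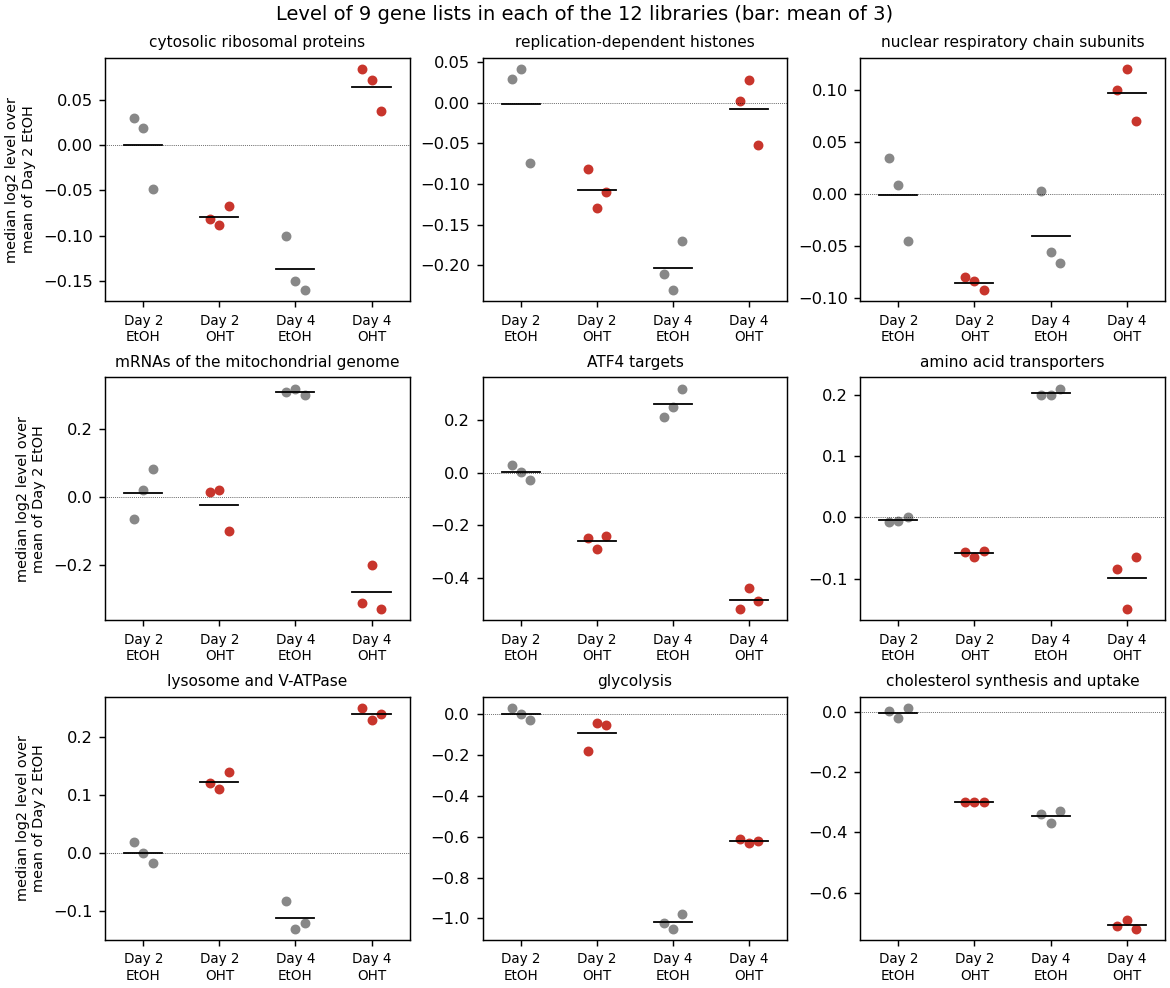
Median log2 level of the members of 9 lists in each of the 12 libraries, relative to the mean of the 3 Day 2 EtOH libraries (vertical, a scale of its own in each panel); grey, EtOH; red, OHT; bar, mean of 3 libraries. ATF4 targets and mitochondrial mRNAs rise in EtOH and fall in OHT, glycolysis falls in both and less in OHT, and cholesterol synthesis falls in parallel in both.

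Effects that turned from lower to higher were, on the median, those of short transcripts. The 240 genes had a median effective length of 1567 bases, against 2278 for all genes tested, and a median effect of -0.16 at Day 2 and 0.19 at Day 4. Ribosomal proteins made up 36 of them, nuclear respiratory chain subunits 15 and replication-dependent histones 9, and 2 were bound genes. Without the length trend the reversals numbered 161 in all, 4 of ribosomal proteins, 3 of the respiratory chain and 3 of histones, and with total counts 107, 16, 4 and 6. Of the 79 cytosolic ribosomal protein genes, 75 became more positive and 1, *Rpl19*, more negative, and the median effect went from -0.083 to 0.2. *Rps2* was at 79114, 80561 and 74519 in EtOH and 75237, 71962 and 72284 in OHT at Day 2, where the groups overlapped, and at 69983, 68854 and 69241 against 89385, 89070 and 90386 at Day 4 (interaction 0.46 ± 0.043, adjusted p = 2e-24). *Rplp2* and *Rps12* had interactions of 0.48 and 0.45.

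The Day 2 part of this turn depended on transcript length. With each library's trend on length removed, 5 ribosomal protein genes instead of 38 were lower at Day 2 and 4 instead of 36 were reversed, while 76 instead of 75 were higher at Day 4 and 65 were still more positive. Scaling to total counts left 17 lower at Day 2 and 16 reversed. The median interaction was 0.18 without the length trend and 0.23 with total counts. In all 5 settings of scaling and length 75 or 76 of the 79 genes were higher in OHT at Day 4.

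Of 44 replication-dependent histone genes, which are copied in S phase and whose transcripts lack a poly(A) tail, 36 became more positive and 0 more negative. Their median went from -0.1 to 0.18, with 23 more positive and 2 more negative without the length trend. *Hist1h2ae* was at 4354 to 5191 against 3552 to 4145 and then at 3297 to 3572 against 4481 to 4654. Histone genes and ribosomal protein genes have near-identical copies, so single values are uncertain where reads were divided among them. Of the other reversals in this direction, *Txnip*, which binds thioredoxin, was at 6602, 6404 and 6209 against 5527, 5619 and 5697 and then at 5336, 5100 and 5229 against 8922, 9261 and 9249 (interaction 1.0 ± 0.047, adjusted p = 1.6e-94). *Jun*, a subunit of AP-1, was at 357 to 459 against 305 to 332 and then at 126 to 142 against 224 to 243. It fell in both labels, by 1.58 log2 in EtOH and by 0.48 in OHT. *Scand1*, a SCAN domain protein, and *Hist1h2ai* had interactions of 1.07 and 0.89.

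Effects that turned from higher to lower, or that faded from higher, were, on the median, those of long genes. The 257 genes reversed in this direction had a median effective length of 4327 bases and a median span of 64.4 kb in the genome, and the 314 faded higher genes 4313 bases and 79.8 kb, against 2278 bases and 22.7 kb for all genes tested. The reversed genes went from a median effect of 0.3 to -0.29. *Zmiz1*, a transcriptional coregulator, was at 151, 165 and 162 in EtOH and 249, 249 and 272 in OHT at Day 2, then at 154, 176 and 179 against 93.8, 99.8 and 82.8 at Day 4 (interaction -1.57 ± 0.19, adjusted p = 6.1e-14). *Pom121*, a nuclear pore protein, was at 499, 584 and 657 against 864, 876 and 1050 and then at 492, 614 and 589 against 313, 292 and 396. *Myrf*, a membrane-bound transcription factor, went from 0.49 to -0.83. In all 3 genes the groups were apart on both days, EtOH changed by 0.24 log2 or less, and OHT moved from above it to below it. *Hist1h2ba*, a testis form of H2B and a short transcript, was the exception in length and went from 0.39 to -0.99.

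Fading took in other regulators with long transcripts. *Kmt2a*, a histone H3 methyltransferase, was at 1050 to 1437 in EtOH against 1830 to 2334 in OHT at Day 2 and at 1193 to 1594 against 1076 to 1192 at Day 4, with an interaction of -1.04 ± 0.22 (adjusted p = 3e-05). *Wnk1*, a kinase of ion transport, was at 5008 to 6988 against 9949 to 11578 and then at 4557 to 6255 against 4511 to 5087, where the groups overlapped. *Adnp*, a homeobox protein of chromatin, and *Peg10*, an imprinted gene derived from a retrotransposon, had interactions of -1.19 and -1.05. EtOH replicate 1 was the lowest of the 3 for *Kmt2a*, *Wnk1* and *Peg10* on both days. The same held for *Zmiz1*, *Pom121* and *Myrf* among the genes reversed from higher to lower.

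Over all genes the interaction fell with length. In 5 groups of equal size by effective length its median was 0.089, 0.061, 0.041, 0.025 and -0.045 from the shortest to the longest. Of the shortest group 24.5% were called more positive and 7.71% more negative, and of the longest 14.3% and 27.3%. The trend was larger in the Day 2 effect, where the median effects of the shortest and longest groups were -0.079 and 0.059, against 0.017 and -0.0063 at Day 4. It also differed between libraries of 1 group, since the median level of the shortest group, relative to all libraries, was 0.047, -0.013 and -0.011 in the 3 Day 4 EtOH libraries. In the 3 Day 2 EtOH libraries that level was 0.052, 0.036 and -0.0018, so that replicate 1 was the highest on both days. With the trend removed the medians lay between 0.0053 and 0.037, and the interaction was still called with the same sign for 245 of the 257 genes reversed to lower, 235 of the 240 reversed to higher and 244 of the 314 faded higher genes. The reversals themselves, which need both day effects, numbered 232 to lower and 161 to higher in that setting. The source of the trend was not tested.

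**Figure D4:**
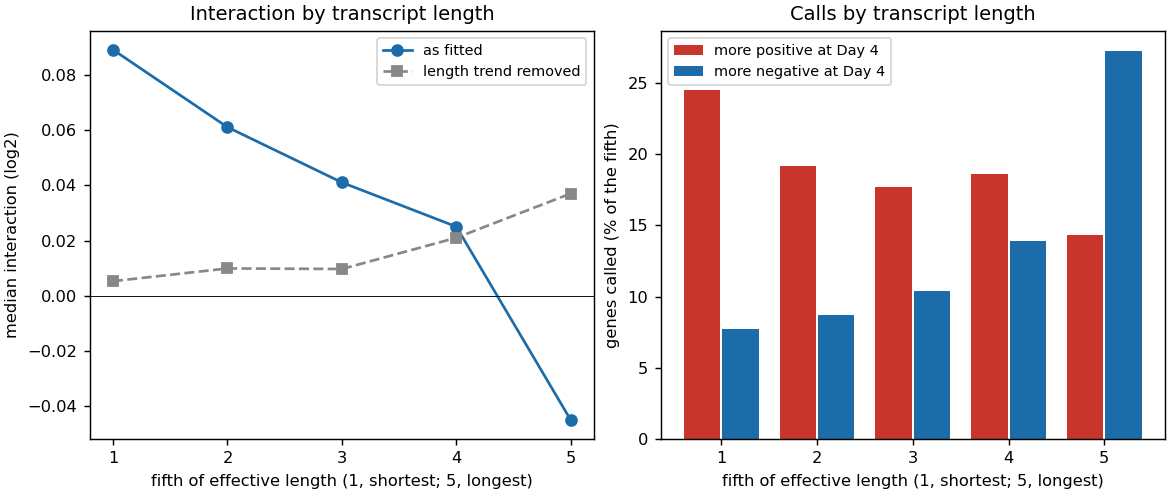
Left, the median interaction (log2) in 5 groups by effective transcript length, as fitted and with each library's length trend removed. Right, the share of each group called more positive or more negative at Day 4, which goes from 24.5% and 7.71% in the shortest group to 14.3% and 27.3% in the longest.

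Of the genes with no called effect at Day 2, *Ephx2*, an epoxide hydrolase, was at 619 to 684 against 720 to 740 and then at 550 to 585 against 1404 to 1633 (interaction 1.23 ± 0.11, adjusted p = 1.2e-28). *Id4*, an inhibitor of basic helix-loop-helix factors, was at 92.5 to 111 against 83.9 to 109 and then at 91.9 to 107 against 222 to 251. *Pcsk1*, a prohormone convertase, had an interaction of 1.24 ± 0.21. *Exosc6*, an exosome subunit, was listed at 0, 0 and 9.1 in EtOH at Day 4 and at 249 to 640 in every other library. It lies wholly within the span of *Aars* on the same strand (chr8:111056339-111057664 inside chr8:111033144-111057664), and *Aars*, named here after its values were seen, was at 28647 to 29458 in those 3 libraries, so reads shared by the pair make the value of *Exosc6* uncertain. Among newly lower genes, *Usp26*, a deubiquitinase, was at 339 to 407 against 338 to 420 and then at 310 to 372 against 135 to 154. *Lef1*, a factor of Wnt signalling, fell in both labels and more in OHT, from 164 to 185 at Day 2 to 10.2 to 30.6 at Day 4. *Egr1*, an immediate early gene of growth factor signalling, was at 130 to 143 against 115 to 156 and then at 137 to 164 against 57.3 to 70.7. The noncoding *Kcnq1ot1* had an interaction of -1.61 ± 0.39, which was -0.42 without the length trend, and 1 of its Day 4 EtOH libraries, at 1967 beside 3973 and 4228, was near the OHT values. A gene with no symbol, ENSMUSG00000109836.1, had an interaction of -1.28 ± 0.31.

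**Figure D5:**
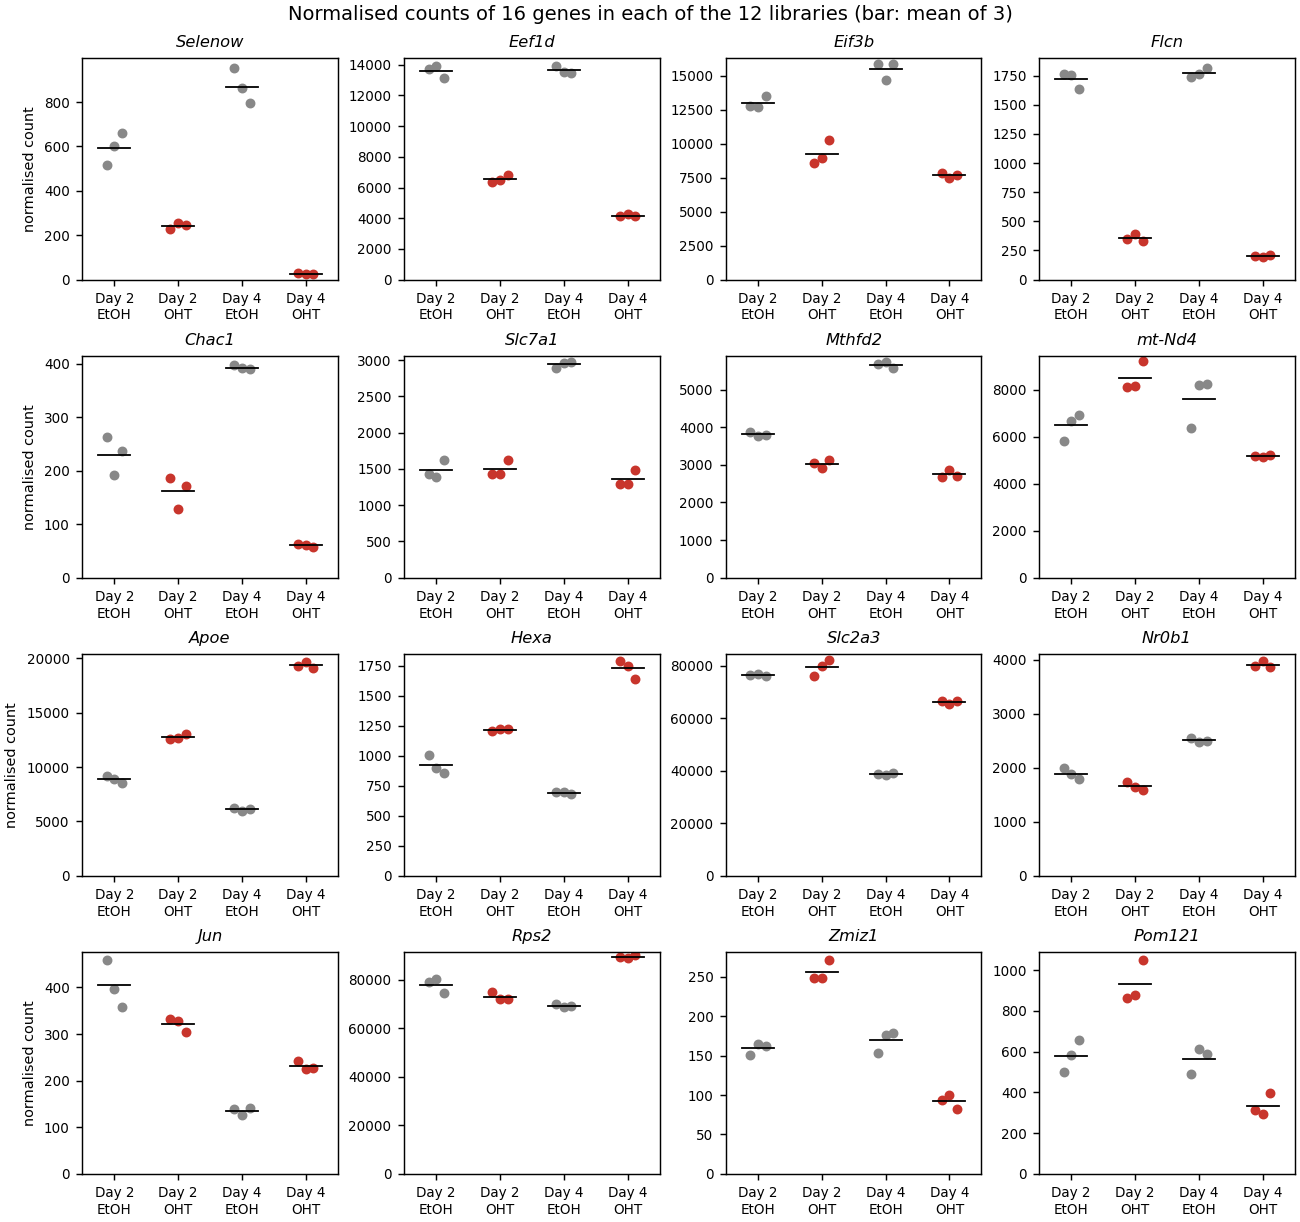
Normalised counts (vertical, from 0) of 16 genes in each of the 12 libraries; grey, EtOH; red, OHT; bar, mean of 3 libraries. *Selenow*, *Eef1d* and *Flcn* fall further in OHT, *Chac1*, *Slc7a1* and *Mthfd2* rise in EtOH while OHT stays or falls, and *Zmiz1* and *Pom121* lie above EtOH at Day 2 and below it at Day 4.

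Among pluripotency factors, *Pou5f1* had an interaction of 0.094 ± 0.042 that was not called (adjusted p = 0.089). *Sox2* was at 15285 to 16539 in EtOH against 12494 to 13357 in OHT at Day 2 and at 14772 to 15561 against 16339 to 17565 at Day 4, a reversal of 0.46 ± 0.056 (adjusted p = 3.5e-14). *Nanog* went from -0.0034 to 0.18. Of 12 core factors 4 became more positive and 3 more negative, and of 20 naive factors 10 and 2. Over all genes tested the shares were 18.9% and 13.6%. The strongest naive factor was *Nr0b1*, a nuclear receptor that binds no ligand of its own, at 1782 to 1990 against 1583 to 1728 and then at 2472 to 2547 against 3864 to 3979. *Klf5* went the other way, from 0.25 to -0.32. Of 14 formative and primed genes 4 became more positive and 3 more negative, and *Dnmt3a*, a DNA methyltransferase, was at 4753 to 4869 against 4528 to 4919 and then at 9293 to 9748 against 6003 to 6284. EtOH thus rose by 0.99 log2 and OHT by 0.36.

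In the lists of DNA replication and mitosis, 29 of 50 and 26 of 40 genes had no called interaction. Over all genes tested it was 7840 of 11612, with 18.9% called more positive and 13.6% more negative. Of 50 DNA replication genes 17 became more negative and 4 more positive (median interaction -0.059), among them *Ccne1*, which encodes cyclin E, at -0.36 ± 0.045, and *Mcm5*, a subunit of the replicative helicase, at -0.31 ± 0.041. Without the length trend 23 of the 50 became more negative and 2 more positive. Between the days 30 of the 50 rose in EtOH (median 0.15) and 20 in OHT (median 0.064). Of 40 mitotic genes 10 became more negative and 4 more positive, with *Cenpn* at -0.28 and *Bub1*, a checkpoint kinase, at 0.44. Of 27 p53 targets 10 became more positive and 2 more negative, with medians of -0.066 at Day 2 and 0.016 at Day 4. *Zmat3* among them went from 0.25 to -0.46. Of 13 tested BCL2 family genes 2 went each way. Of 21 genes of the FGF-ERK response 8 became more positive and 5 more negative, *Dusp4*, a phosphatase of ERK, going from 0.15 to 0.95.

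Cholesterol synthesis had an effect of similar median size on both days. Of 24 genes of cholesterol synthesis and uptake, 18 were lower at Day 2 and 22 at Day 4, with medians of -0.3 and -0.36. Of these 24, 2 became more positive and 4 more negative, beside 18.9% and 13.6% of all genes tested. The median level of the list fell in parallel, to between -0.37 and -0.33 log2 in EtOH and between -0.72 and -0.69 in OHT at Day 4. *Dhcr7*, the last enzyme of the pathway, went against this, from -0.17 to -0.7. Mitochondrial ribosomal proteins had a median of -0.11 on both days, with 7 more positive and 6 more negative of 78, unlike those of the cytosolic ribosome. Without the length trend those numbers were 3 and 18. Ribosome biogenesis factors had medians of -0.1 and -0.11, with 9 and 12 of 77. Of 14 eIF3 subunits 5 became more positive, among them *Eif3f* and *Eif3e* at 0.31 and 0.24, and *Eif3b* alone more negative. Without the length trend 6 of the 14 were more positive and 2 more negative. Of 37 other translation factors 11 became more positive and 10 more negative, *Eif4ebp2*, which holds back eIF4E, at -0.73 ± 0.19.

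In the remaining lists the counts were as follows, beside 18.9% more positive and 13.6% more negative of all genes tested. Of 31 proteasome subunits 3 became more positive and 5 more negative, and of 26 cytosolic chaperones 3 and 4, *Hsph1* at -0.42 ± 0.066. Without the length trend these numbers were 0 and 9 for the proteasome and 3 and 8 for the chaperones. Small nucleolar RNA host genes gave 5 and 1 of 11, genes of folliculin and the TFE factors 3 and 2 of 11, imprinted genes 5 and 9 of 26, with *Grb10*, an adaptor of insulin signalling, going from -0.32 to -1.08. Genes that NRF2 activates gave 4 and 4 of 16, and 2 and 8 without the length trend. *Srxn1*, a bound gene of that list, had effects of -2.48 log2 at Day 2 and -2.81 at Day 4, with no called interaction (adjusted p = 0.067). Estrogen receptor response genes gave 0 and 1 of 8 tested. Of 24 markers of germ layers and trophectoderm 6 were tested and 1, *Eomes*, became more positive, and of 18 feeder genes 2 were tested and 0 called for the interaction. Both, *Fn1* and *Col5a1*, which encode matrix proteins, were higher in OHT at Day 2, by 0.5 and 0.4 log2 (adjusted p = 0.0016 and 0.0083), and *Fn1* at Day 4 too (0.36, adjusted p = 0.022). None of 15 genes of the two-cell-like state passed the minimum count.

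Among the 16 effects that shrank, *Parvb*, a protein of focal adhesions, was at 251 to 318 against 512 to 583 and then at 332 to 343 against 376 to 477 (interaction -0.57 ± 0.16, adjusted p = 0.0024). *Akt2*, a kinase of insulin signalling, and *Paxip1*, a protein of DNA repair, kept gains of 0.4 and 0.42 at Day 4 from 0.66 and 0.7, and *Trim13*, a ubiquitin ligase, kept a loss of 0.23 from 0.55. *Akt2*, *Paxip1* and *Trim13* are on the list of bound genes.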

How the data were processed

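RNA was sequenced from 12 mESC libraries made with a stranded total RNA kit. The authors aligned reads to GRCm38.p6 with STAR (2.6.0c) and counted genes with RSEM against GENCODE vM18, per the study's methods and the submitters' processing notes. The deposited gene tables hold expected counts, one table per library, which were rounded to whole numbers. 2 further deposited tables hold the authors' own fold changes and p-values and were not used. All 12 libraries were fitted in 1 model with a mean for each of the 4 groups in DESeq2 (1.42.0, R 4.3.3), with Wald tests of the interaction, of treatment within each day and of day within each treatment. A gene was called at an adjusted p below 0.05 (Benjamini-Hochberg, independent filtering) with a mean normalised count above 100. A fit of 1 model a day is among the alternatives. Values are log2 changes with SE. Genes had 3 libraries a group, at 35017667 to 41409992 expected counts each.

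The sets of genes named, the 36 lists and the classes were chosen with earlier results of these data known. For each class the 4 genes with the largest interaction were named among those called in all 12 leave-one-out fits, other than predicted genes (Gm with digits, Rik, pseudogenes) and genes whose posterior SD exceeded 0.1 of the posterior mean count, and for each list the 3 members with the largest interaction. *Prdm10*, 6 genes the study singled out and *Atf4*, *Pou5f1*, *Sox2*, *Nanog*, *Flcn*, *Polrmt* and *Tfam* were added. Lists are described by counts and medians with no test. Alternatives were edgeR (quasi-likelihood), scaling by TMM or by total counts, offsets from effective length, a fit after a loess curve of level on log2 effective length (span 0.3) was subtracted in every library, a replicate block, other thresholds and each library left out. The interaction test was tested on simulated counts. In no group did a pair of libraries match as closely as repeat counts of 1 library would, the chi-square per gene being at least 3.41. Spans are from GENCODE vM21 (GRCm38). 1 gene that the rule names is not reported here.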

Additional observations from a re-analysis of the deposited data

Results flagged for a closer look

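A test of the difference between the 2 days flags every gene called for the interaction, that is 2191 genes with a treatment effect more positive at Day 4 and 1581 with one more negative. Among the named genes whose effect changed sign, with both day effects called, the interaction in log2 was 1.1 for *Jun*, 1.07 for *Scand1*, 1.0 for *Txnip* and 0.89 for *Hist1h2ai*, all from lower to higher. It was -1.57 for *Zmiz1*, -1.44 for *Pom121*, -1.37 for *Hist1h2ba* and -1.32 for *Myrf*, all from higher to lower. At Day 2 the adjusted p (DESeq2 Wald test) was between 0.017 and 0.037 for *Jun*, *Scand1*, *Hist1h2ai* and *Hist1h2ba*, and 0.0023 or less for the other 4. Groups of 3 libraries are too small for a test of single outlying libraries.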

How the results depend on the processing

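No called value among the named genes, counts and list medians recomputed changed its direction under the alternatives run, while medians near 0 could, such as that of mitochondrial ribosomal proteins (0.00072, and -0.044 with total count scaling). Of 4372 values recomputed, 4215 were labelled as kept. For a named gene that meant the same side of the threshold, and for a list median a move within the median SE of its members. A count only had to stay within a set ratio of the main count. The fall from 2191 to 1675 more positive genes with total count scaling was thus labelled as kept. The replicate numbers gave no sign of pairing the libraries. Correlations of deviations from the group mean ran from -0.43 to 0.291 for the same number and from -0.396 to 0.416 for different numbers. With 3 libraries a group such a check cannot exclude pairing. With a replicate block 3329 genes were called, 1918 more positive and 1411 more negative. With a replicate block within each day the numbers were 1365 more positive, 1942 called at Day 2, 2345 changed between days in EtOH and 3497 in OHT, with 221 deepened, 7 shrunk, 137 reversed from lower to higher, 1370 new at Day 4 and 342 faded. With the length trend removed, 23 histone genes were more positive and median interactions were 0.18 for ribosomal proteins, 0.13 for nuclear respiratory chain subunits, -0.71 for mitochondrial mRNAs and 0.15 for histones. A replicate block on top gave the same 5 values and 153 reversals from lower to higher. Those reversals numbered 107 with total count scaling, 151 with 1 fit a day and 111 with day effects called at an adjusted p below 0.01. The last 2 settings left 392 and 600 genes called on neither day, and the stricter one left 126 reversals from higher to lower. By edgeR 27 effects shrank, and 4509 genes were called. Leaving out 1 library at a time gave 1964 to 3121 genes called at Day 2, 6 to 21 shrunk, 110 to 268 reversed from lower to higher, 167 to 306 from higher to lower and 318 to 591 faded, with the lowest count at Day 2, of reversals to higher and of fading without Day 2 EtOH replicate 1. The cause of these changes was not tested. Of 129 called named genes, 14 lost the call without some library and 3, *Cenpf*, *Prdm10* and *Snhg20*, without the length trend. The median SE of the interaction was 0.091 log2 with 3 libraries a group, and differences between the days of several times that size can have gone undetected.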
